A study of Mus musculus with 22 samples.

Results

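The genes described here are 10 genes of the trophoblast lineage, Cdx2, Eomes, Tfap2c, Gata2, Gata3, Elf5, Hand1, Fgfr2, Krt8 and Krt18. They are a list of names that was drawn up with earlier results of these data known, and they are 10 of the 47729 genes in each count table, with symbols from GENCODE M21. The values are RNA-seq read counts from 22 libraries of mouse embryonic stem (ES) cells, made for a study of how duplication of the Dux cluster bears on genes of the cleavage-stage embryo. Dux encodes a double homeobox transcription factor. The untreated set held 4 Dux n=1 clones (17, 22, 31 and 40), 3 Dux-KO clones (15, 22 and 52) and 3 E14 libraries, E14 being a mouse ES cell line. The edited clones were made with CRISPR-Cas9, and their names are read here as 1 Dux copy and no Dux. The treated set held 2 libraries for each of N22, KO22 and WT with GSK-3484862, and 2 for each with DMSO, its solvent control. N22 (titled Dux-N22) is read here as a clone with 1 Dux copy and KO22 (titled Dux-KO22) as a clone with no Dux. No label says that they are the untreated clones numbered 22. GSK-3484862, which per the series text degrades DNMT1, the enzyme that copies DNA methylation at replication, was given for 3 days at 1 uM according to the treatment protocol and at 2 uM according to the series text. All cells grew in serum with LIF. N22 and KO22 read as 1 clone each, so in the treated set genotype and clone cannot be told apart, and the line behind the treated WT cells is not given in the sources used here. In the untreated set each edited library is a different clone, so the spread behind p-values there includes that between clones. The only unedited cells there are the E14 libraries, so Dux genotype cannot be told apart from editing, cloning or another difference from those libraries. The E14 libraries (titled E14-chen) and the treated libraries are numbered repeats. No label ties these repeats to separate cultures, so p-values measure the spread between these libraries, which may be technical.

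The trophoblast arises from the trophectoderm, the outer epithelium of the blastocyst, and later forms the fetal part of the placenta. In outer cells of the mouse embryo, YAP1 and WWTR1 act with TEAD4 when Hippo signalling is low, and this activates Cdx2 and Gata3. CDX2, EOMES, TFAP2C and ELF5 then sustain trophoblast stem cells, which depend on FGF4 received through FGFR2, while ES cells belong to the inner cell mass lineage and are held apart from trophoblast in part by DNA methylation of Elf5.

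Libraries held 15803194 to 19427794 counts, so a count of 0 allowed a level of up to 0.154 to 0.190 CPM per library (counts scaled to the library total), counting error only. Levels below are TPM, which are scaled by exonic length as well as library total and can be compared between genes, or raw counts where they are few. Duxf3, the annotated Dux gene, had 0 counts in all 4 KO22 libraries, 11 to 13 in N22 with GSK-3484862 and 18 to 19 in WT with GSK-3484862. With DMSO it had 3 and 0 counts in N22 and 1 and 1 in WT, and it had 0 to 1 in E14. Without the compound its counts thus do not separate the genotypes. The library labelled Dux-KO clone 22 had 5 Duxf3 counts, the most of any untreated library, and is therefore called by its label, with results given with and without it. Markers of ES cells stayed high throughout, with 8 of 8 ES markers detected and summing to 4200 to 6400 CPM per library. Of 14 placental trophoblast products, 7 were at 0 in all groups, among them the spongiotrophoblast marker Tpbpa, the giant cell hormone Prl3d1 and the syncytin gene Synb. The label of these genes is used here for their known role only. Whether a small share of cells had a trophoblast identity cannot be told from bulk RNA and was not tested.

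Promoter sequences are shown because the compound acts on DNA methylation, whose substrate is the CG dinucleotide, and because Gata3 was called higher with it in all 3 genotypes while Fgfr2 and Krt8 differed in response between them. The RefSeq table (GRCm38.p6) held promoters for 8 of the 10 genes, without Tfap2c and Hand1. Hand1 was also called higher in all 3 genotypes and Tfap2c also differed in response, so the sequences leave out these genes. Each sequence below is read 5′ to 3′ along the gene's strand with CG in capitals. Gata3 (chr2:9878601-9878850, minus strand) had 19 CG in the 250 bases before its RefSeq start, Cdx2 (chr5:147307271-147307499, minus strand, the 229 of these bases outside its annotated exon, with 11 CG) 13, Fgfr2 (chr7:130266809-130267058, minus strand) 2 and Krt8 (chr15:102004343-102004592, minus strand) 3. The RefSeq starts of Gata3 and Fgfr2 lie inside the genes as annotated for counting, and sequence before the far upstream exons of these genes was not examined.
Gata3: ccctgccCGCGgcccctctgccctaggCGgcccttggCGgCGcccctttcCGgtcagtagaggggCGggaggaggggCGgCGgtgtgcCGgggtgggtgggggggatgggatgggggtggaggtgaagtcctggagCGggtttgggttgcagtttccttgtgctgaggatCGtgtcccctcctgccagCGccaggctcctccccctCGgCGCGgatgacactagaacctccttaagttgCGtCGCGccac
Cdx2: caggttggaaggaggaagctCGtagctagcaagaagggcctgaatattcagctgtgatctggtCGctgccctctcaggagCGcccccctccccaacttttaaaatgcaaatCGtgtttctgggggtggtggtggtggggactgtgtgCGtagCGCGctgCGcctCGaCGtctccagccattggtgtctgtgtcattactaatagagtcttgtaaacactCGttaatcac
Fgfr2: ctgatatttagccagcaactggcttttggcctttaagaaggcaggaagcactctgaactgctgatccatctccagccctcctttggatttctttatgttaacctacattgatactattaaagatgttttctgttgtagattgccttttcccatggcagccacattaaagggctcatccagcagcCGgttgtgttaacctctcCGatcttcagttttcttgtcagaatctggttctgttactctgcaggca
Krt8: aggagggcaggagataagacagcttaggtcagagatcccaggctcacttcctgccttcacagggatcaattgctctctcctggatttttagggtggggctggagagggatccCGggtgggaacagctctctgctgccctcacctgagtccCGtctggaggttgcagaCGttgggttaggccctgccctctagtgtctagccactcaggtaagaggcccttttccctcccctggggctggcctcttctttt
The median over 32851 promoters was 6 CG, so Gata3 and Cdx2 lay above it and Fgfr2 and Krt8 below. The observed over expected ratio of CG was 0.63 for Gata3, 0.69 for Cdx2, 0.17 for Fgfr2 and 0.14 for Krt8, against a median of 0.37. Gata2 had 22 and 24 CG at its 2 listed starts, Krt18 had 12, Eomes 8, and Elf5 8 and 2. The letters GCCNNNGGC, bound by TFAP2 factors and searched like the others on both strands of these 250 bases, were found 3 times at Gata3 and once each at Cdx2, Krt18 and 1 Gata2 start, and in 13.7% of all promoters. The letters AGATAA of GATA factors were found at Krt8 and in 9.99% of promoters, and GGAATG of TEAD factors at 1 start each of Gata2 and Elf5 and in 12.6%. The Cdx2 match lies in the bases left out above as annotated exon. The Gata2 and Elf5 windows with matches also begin within annotated exons of these genes. No methylation was measured in these libraries, and no relation between CG and response was tested.

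In the treated set 9 of the 10 genes had enough counts to be tested, all but Elf5. With GSK-3484862 the genes called higher were Gata3 and Hand1 in all 3 genotypes, Cdx2 in KO22 and WT, Tfap2c in N22 and KO22, Fgfr2 in KO22, and Gata2 and Krt8 in WT. Those called lower were Eomes in N22 and Krt8 in KO22. A gene was called at an adjusted p below 0.05 in edgeR's quasi-likelihood test with Benjamini-Hochberg adjustment over all genes tested. In N22, 3 of 9 rose and 1 fell, against 26.9% and 26% of all 16641 genes tested (53% called). In KO22, 5 of 9 rose and 1 fell, against 24.8% and 21.2% of all genes (46% called). In WT, 5 of 9 rose and 0 fell, against 28.7% and 28.1% (56.8% called). The median log2 fold change of the 9 genes was 0.34 in N22, 1.06 in KO22 and 0.39 in WT, and that of all genes was 0.00 in each.

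**Figure D1:**
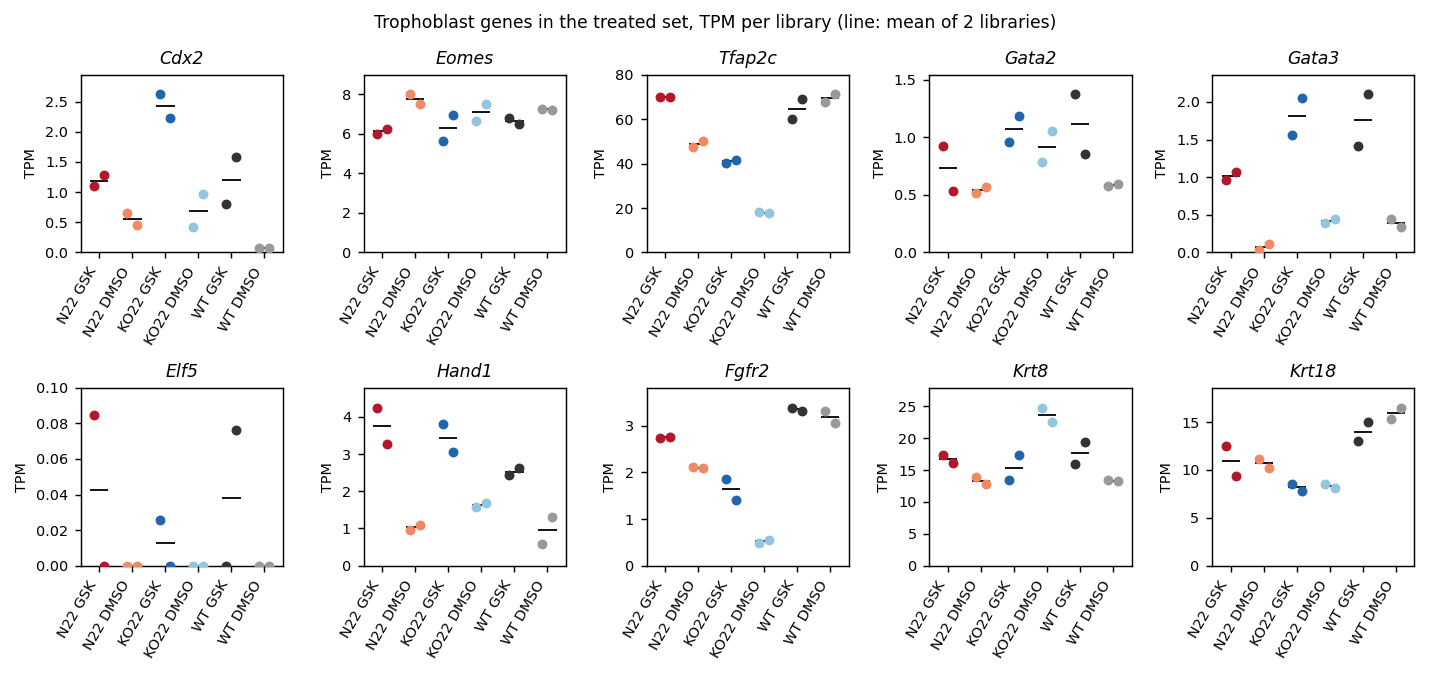
TPM of the 10 genes in each of the 12 treated libraries, with GSK-3484862 left of DMSO for N22, KO22 and WT; points are libraries and lines are means of 2. Gata3 and Hand1 lie higher with GSK-3484862 in every genotype, and Tfap2c and Fgfr2 are lowest in KO22 with DMSO.

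Cdx2 (ENSMUSG00000029646, chromosome 5, 147300805 to 147307270, minus strand) encodes the caudal-type homeobox factor that specifies trophectoderm. It had 15 and 19 counts in N22 libraries with GSK-3484862, against 10 and 7 with DMSO. In KO22 it had 39 and 34 counts with GSK-3484862, against 6 and 15 with DMSO. In WT it had 12 and 24 counts with GSK-3484862, against 1 and 1 with DMSO. Libraries with the compound were above their DMSO controls in all 3 genotypes, without overlap. With 2 libraries per group, such separation is weak support by itself, here and for every gene below. The share of all genes that separate in this way was not counted. The rise in WT was 36 against 2 counts, a CPM ratio of 18.9 with an exact 95% counting interval of 4.87 to 162, and was called (edgeR adjusted p = 1.75e-05). The WT libraries with DMSO were under the minimum count of 10, so Cdx2 passed the filter on low counts through libraries where it was higher. The WT call was kept with no filter. In KO22 Cdx2 rose by 1.77 ± 0.47 on the log2 scale (SE; edgeR adjusted p = 0.00132), a call that was lost without KO22 DMSO library 1 (1.30, adjusted p = 0.0521). In N22 the difference was 1.02 ± 0.54 and was not called (edgeR adjusted p = 0.104). The starting level differed between genotypes: with DMSO, N22 had 17 counts and KO22 21, against 2 in WT. That was a ratio of 8.78 (2.08 to 78.3) for N22 and 10.8 (2.65 to 95.3) for KO22 against WT, both called (edgeR adjusted p = 0.011 and 0.00139). Cdx2 passed the filter on low counts here in a fit that also held the libraries with GSK-3484862. With only the compared DMSO groups in the fit it was not tested in either comparison. The N22 call was lost without N22 DMSO library 1 (adjusted p = 0.0851) or WT DMSO library 1 (0.0635) or 2 (0.0696), and the KO22 call without KO22 DMSO library 2 (0.0646). With GSK-3484862 neither genotype was called against WT, at 1.19 ± 0.12 TPM in N22 and 2.43 ± 0.27 in KO22, against 1.19 ± 0.55 in WT (SD, n = 2 each). Both KO22 libraries lay above both WT libraries, the difference was 1.02 ± 0.43 (log2, SE; edgeR adjusted p = 0.0839), and it was called with only the compared groups (0.0428). Differences between the 3 responses were not called for Cdx2, the smallest adjusted p being 0.0534 for N22 against WT, and without WT GSK library 1 that became 0.0349 and with a GC content offset 0.0467. The comparison of KO22 with WT (adjusted p = 0.0917) likewise became 0.0464 without KO22 DMSO library 1.

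Eomes (ENSMUSG00000032446, chromosome 9, 118478212 to 118486132, plus strand), a T-box factor of trophoblast stem cells that also acts in mesendoderm, varied little. It had 5.97 and 6.26 TPM in N22 with GSK-3484862, against 7.99 and 7.50 TPM with DMSO. Both N22 libraries with the compound were below both controls, and Eomes fell by 0.42 ± 0.14 (log2, SE; edgeR adjusted p = 0.00779). This call was lost without N22 DMSO library 1 (adjusted p = 0.0957) or N22 GSK library 1 (0.0592). KO22 libraries had 5.64 and 6.95 TPM with GSK-3484862, against 6.67 and 7.50 with DMSO. WT libraries had 6.82 and 6.47 TPM with GSK-3484862, against 7.23 and 7.22 with DMSO. The KO22 libraries overlapped and the WT libraries did not, and neither change was called (log2 -0.18 ± 0.14 and -0.14 ± 0.14). No genotype was called against another, with DMSO or with GSK-3484862.

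Elf5 (ENSMUSG00000027186, chromosome 2, 103411688 to 103450989, plus strand), an ETS factor known for a promoter that is methylated in ES cells and not in trophoblast, was barely counted. It had 3 and 0 counts in N22 with GSK-3484862, 1 and 0 in KO22 and 0 and 3 in WT. All 6 DMSO libraries had 0 counts, as did 9 of the 10 untreated libraries, and Dux-KO clone 15 had 1. Reads thus appeared in 3 of 6 libraries with the compound, all at or under the 3 counts that a count of 0 allows, and Elf5 was not tested.

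Tfap2c (ENSMUSG00000028640, chromosome 2, 172549593 to 172558622, plus strand) encodes an AP-2 factor that acts upstream of Cdx2 in trophectoderm and is also active in ES cells and germ cell precursors. It was the highest of the 10 genes by mean TPM in every group except KO22 with DMSO. It had 70.1 and 70.2 TPM in N22 with GSK-3484862, against 47.4 and 50.0 with DMSO. The KO22 values were 40.5 and 41.8 TPM with GSK-3484862, against 18.0 and 17.6 with DMSO. The WT values were 60.3 and 69.1 TPM with GSK-3484862, against 68.0 and 71.3 with DMSO. The compound thus raised Tfap2c in both Dux clones, without overlap, while the WT libraries overlapped. The rise was 0.45 ± 0.06 in N22 (log2, SE; edgeR adjusted p = 7.49e-10) and 1.20 ± 0.07 in KO22 (1.39e-24). In WT the value was -0.13 ± 0.06 and was not called (edgeR adjusted p = 0.0504), but without WT GSK library 2 it was -0.22 and called (0.00463). The responses themselves differed, by 0.57 ± 0.08 for N22 against WT (edgeR adjusted p = 1.86e-07), by 1.32 ± 0.09 for KO22 against WT (4.65e-20) and by -0.75 ± 0.09 for N22 against KO22 (6.97e-10). With DMSO, Tfap2c was lower than in WT by a log2 value of -0.46 ± 0.06 in N22 (edgeR adjusted p = 1.64e-09) and -1.98 ± 0.06 in KO22 (4.12e-37). With GSK-3484862 the difference from WT was 0.11 ± 0.06 in N22, which was not called, and -0.66 ± 0.06 in KO22 (edgeR adjusted p = 1.33e-14). The responses and the DMSO differences use the same DMSO libraries, so they are not independent of each other.

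**Figure D2:**
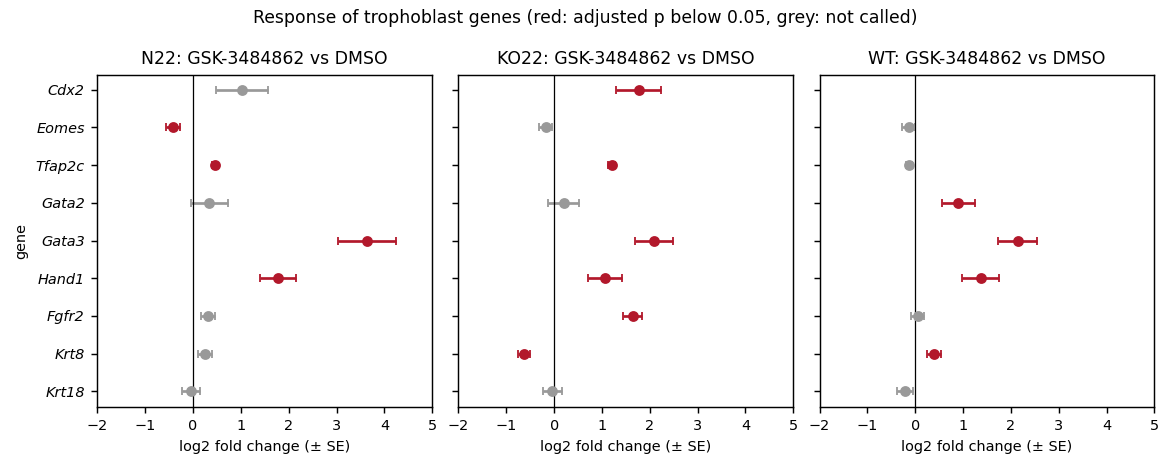
Log2 fold change of GSK-3484862 over DMSO in N22, KO22 and WT, with SE bars; red points are called at an adjusted p below 0.05. Elf5, and Cdx2 in WT, are left out because their counts are too few; Gata3 and Hand1 are called in all 3 panels, Tfap2c in the N22 and KO22 panels and Fgfr2 in the KO22 panel.

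Gata3 (ENSMUSG00000015619, chromosome 2, 9857078 to 9890034, minus strand), a zinc finger factor that acts beside Cdx2 in trophectoderm, rose in all 3 genotypes. It had 23 and 28 counts in N22 with GSK-3484862, against 1 and 3 with DMSO. In KO22 it had 41 and 55 counts with GSK-3484862, against 10 and 12 with DMSO. In WT it had 37 and 56 counts with GSK-3484862, against 12 and 9 with DMSO. Libraries with the compound were higher in all 3 genotypes, without overlap. In N22 the 51 counts against 4 gave a CPM ratio of 13.5 with a counting interval of 4.97 to 51.6 (edgeR adjusted p = 5.86e-07). The N22 libraries with DMSO were under the minimum count of 10, so Gata3 passed the filter on low counts through libraries where it was higher. The N22 call was kept with no filter. The log2 rise was 2.09 ± 0.40 in KO22 (SE; edgeR adjusted p = 1.07e-05) and 2.14 ± 0.40 in WT (5.68e-06). The responses did not differ by a called amount, the N22 response standing 1.49 ± 0.82 above that of WT (edgeR adjusted p = 0.281). With DMSO, N22 had 4 counts, against 21 in WT and 22 in KO22, ratios of 0.197 (0.0491 to 0.583) and 0.182 (0.0456 to 0.536), both called (edgeR adjusted p = 0.0129 and 0.00533). With only the compared DMSO groups in the fit Gata3 was not tested in N22 against WT. The call against WT was lost without N22 DMSO library 1 (adjusted p = 0.148) or WT DMSO library 1 (0.0902), and that against KO22 without N22 DMSO library 1 (0.0831). Of its 3978 exonic bases, 232 are shared with the exons of Gm13256 and 9230102O04Rik, and reads there could not be split by strand.

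Gata2 (ENSMUSG00000015053, chromosome 6, 88193891 to 88207032, plus strand), the family member known in trophoblast giant cells and blood progenitors, had 30 and 19 counts in N22 with GSK-3484862, against 19 and 21 with DMSO. KO22 libraries had 34 and 43 counts with GSK-3484862, against 27 and 39 with DMSO. WT libraries had 49 and 31 counts with GSK-3484862, against 21 and 22 with DMSO. Libraries overlapped in N22 and KO22 and were separate only in WT. The WT rise of 0.90 ± 0.35 (log2, SE; edgeR adjusted p = 0.0253) was not called by DESeq2 (0.0743), nor without WT DMSO library 1 (0.0874) or 2 (0.0751), and it was 0.53 without WT GSK library 1 (0.338). The values were 0.34 ± 0.39 in N22 and 0.20 ± 0.33 in KO22, neither called, and the differences between responses were not called either.

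Hand1 (ENSMUSG00000037335, chromosome 11, 57828705 to 57832818, minus strand) encodes a basic helix-loop-helix factor that drives giant cell differentiation and is also active in mesoderm. It had 51 and 43 counts in N22 with GSK-3484862, against 13 and 15 with DMSO. The KO22 values were 50 and 41 counts with GSK-3484862, against 20 and 23 with DMSO. The WT values were 32 and 35 counts with GSK-3484862, against 8 and 18 with DMSO. The groups did not overlap in any genotype. The log2 rise was 1.78 ± 0.37 in N22 (SE; edgeR adjusted p = 3.93e-05), 1.06 ± 0.35 in KO22 (0.00911) and 1.37 ± 0.39 in WT (0.00225). The KO22 call was lost without KO22 DMSO library 1 (adjusted p = 0.0538) or KO22 GSK library 1 (0.095), and the WT call without WT DMSO library 1 (0.92, 0.0839). Neither the responses nor the genotypes within a treatment differed by a called amount, but without WT DMSO library 2 Hand1 was called higher in KO22 than in WT with DMSO (1.43, adjusted p = 0.0348).

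Fgfr2 (ENSMUSG00000030849, chromosome 7, 130162451 to 133123350, minus strand), the receptor for FGF4 in trophoblast stem cells, had 2.74 and 2.76 TPM in N22 with GSK-3484862, against 2.11 and 2.09 with DMSO. In KO22 it had 1.86 and 1.41 TPM with GSK-3484862, against 0.485 and 0.552 with DMSO. In WT it had 3.39 and 3.31 TPM with GSK-3484862, against 3.31 and 3.06 with DMSO. KO22 with DMSO was the lowest group and stood apart from all others. Fgfr2 rose in KO22 by 1.64 ± 0.20 (log2, SE; edgeR adjusted p = 3.22e-10), with values of 0.31 ± 0.15 in N22 and 0.05 ± 0.14 in WT that were not called. With a GC content offset the N22 value was 0.35 and called (adjusted p = 0.0374). The KO22 response exceeded that of WT by 1.58 ± 0.25 (edgeR adjusted p = 3.80e-07), and the N22 response differed from that of KO22 by -1.33 ± 0.25 (5.25e-05). With DMSO, Fgfr2 was lower than in WT by a log2 value of -0.55 ± 0.14 in N22 (edgeR adjusted p = 0.00261) and -2.62 ± 0.18 in KO22 (5.76e-20). With GSK-3484862 it was -0.29 ± 0.14 in N22, not called, and -1.04 ± 0.15 in KO22 (edgeR adjusted p = 7.93e-08). The annotated gene includes far upstream exons, of which 314 bases are shared with exons of Ctbp2 among 10328 in all.

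Krt8 (ENSMUSG00000049382, chromosome 15, 101996711 to 102004342, minus strand) and Krt18 (ENSMUSG00000023043, chromosome 15, 102028216 to 102032026, plus strand) lie next to each other and encode the keratins that pair into the first filaments of the trophectoderm. Krt8 had 17.4 and 16.1 TPM in N22 with GSK-3484862, against 13.9 and 12.8 with DMSO. KO22 libraries had 13.4 and 17.4 TPM with GSK-3484862, against 24.8 and 22.5 with DMSO. WT libraries had 15.9 and 19.4 TPM with GSK-3484862, against 13.4 and 13.2 with DMSO. Libraries did not overlap in any genotype, but KO22 moved down where N22 and WT stood higher. Krt8 fell in KO22 by 0.63 ± 0.13 (log2, SE; edgeR adjusted p = 6.31e-05), was 0.25 ± 0.14 in N22, not called, and rose in WT by 0.39 ± 0.14 (0.0138). The WT call was lost without WT DMSO library 2 (adjusted p = 0.0644) or WT GSK library 2 (0.25, 0.244). The KO22 response differed from that of WT by -1.02 ± 0.19 (edgeR adjusted p = 1.94e-05), and the N22 response from that of KO22 by 0.88 ± 0.19 (0.000456). With DMSO, Krt8 was 0.82 ± 0.14 higher in KO22 than in WT (edgeR adjusted p = 4.54e-07), and with GSK-3484862 the value was -0.20 ± 0.14, not called. One annotated pseudogene, Krt8-ps, carries the gene's name, and reads that fit both places were not counted.

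Krt18 did not move with its partner. It had 12.5 and 9.35 TPM in N22 with GSK-3484862, against 11.2 and 10.2 with DMSO. The KO22 values were 8.58 and 7.76 TPM with GSK-3484862, against 8.49 and 8.15 with DMSO. The WT values were 13.0 and 15.0 TPM with GSK-3484862, against 15.3 and 16.5 with DMSO. The libraries overlapped in N22 and KO22 and not in WT. No response was called, with log2 values of -0.05 ± 0.19 in N22, -0.04 ± 0.20 in KO22 and -0.21 ± 0.17 in WT. The genotypes differed instead: KO22 was lower than WT by -0.95 ± 0.18 with DMSO (edgeR adjusted p = 9.55e-06) and by -0.78 ± 0.19 with GSK-3484862 (0.00092). N22 was lower than WT by -0.52 ± 0.17 with DMSO (edgeR adjusted p = 0.0193), a call that DESeq2 did not make (0.0902) and that was lost without N22 DMSO library 2 (0.181), WT DMSO library 1 (0.0517) or WT DMSO library 2 (0.133). In bulk RNA, less RNA per cell and fewer cells with the transcript cannot be told apart, here or for any gene above.

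**Figure D3:**
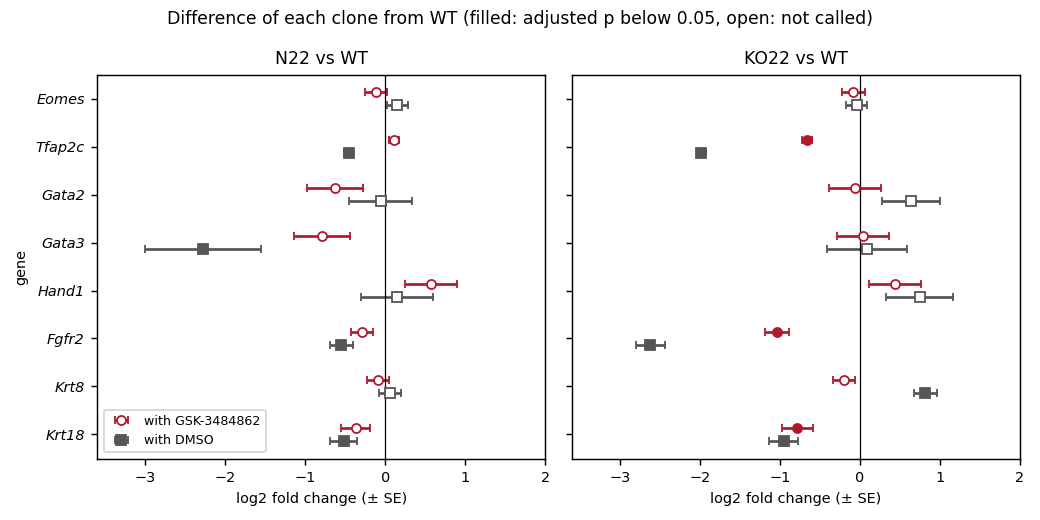
Log2 difference of N22 and of KO22 from WT for 8 genes, with GSK-3484862 (circles) and with DMSO (squares), with SE bars; filled points are called. Elf5 and Cdx2 are left out for few counts; in the KO22 panel Tfap2c and Fgfr2 lie at -1.98 and -2.62 with DMSO and at -0.66 and -1.04 with GSK-3484862.

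Counted by genotype, N22 with DMSO had 1 of 9 genes higher and 4 lower than WT, against 11.5% and 13.9% of all genes (25.4% called). DESeq2 called 0 higher and 2 lower and gave no adjusted p for Cdx2 and Gata3, and with only the compared groups these genes were not tested and 0 higher and 3 lower were called. The counts were 0 and 3 without N22 DMSO library 1, 0 and 2 without WT DMSO library 1, and 0 and 3 without WT DMSO library 2. KO22 with DMSO had 2 higher and 3 lower than WT, against 23.4% and 28.5% (51.9% called). With only the compared groups Cdx2 was not tested there, and 1 higher and 3 lower were called. N22 with DMSO had 2 higher and 2 lower than KO22, against 21.1% and 18% (39.1% called). These were Tfap2c (1.51 ± 0.07) and Fgfr2 (2.07 ± 0.19) on the higher side, and Krt8 (-0.76 ± 0.14) and Gata3 on the lower. With GSK-3484862 fewer of the 9 were called: 0 for N22 against WT by edgeR and by DESeq2, with 3 at an unadjusted edgeR p below 0.05 (5.05% of all genes higher and 4.6% lower; 9.65% called), 0 higher and 3 lower for KO22 against WT (12.3% and 10.1%; 22.4% called), and 2 higher and 0 lower for N22 against KO22 (11.7% and 12.9%; 24.6% called). Those 2 were Tfap2c (0.77 ± 0.06, edgeR adjusted p = 1.46e-17) and Fgfr2 (0.75 ± 0.15, 0.000106). With only the compared groups Cdx2 (-1.02, adjusted p = 0.0366) and Gata3 (-0.83, 0.0449) were also called, as lower in N22 than in KO22. For the differences between responses, 1 gene was higher and 0 lower for N22 against WT (5.82% and 5.26% of all genes; 11.1% called), 2 higher and 1 lower for KO22 against WT (18.3% and 13.5%; 31.8%), and 1 higher and 2 lower for N22 against KO22 (7.81% and 10.8%; 18.6%).

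In the untreated set 8 of the 10 genes were tested, without Cdx2 and Elf5, and only Eomes was called in both kinds of edited clone. Eomes had 6.32, 7.50, 5.41 and 5.56 TPM in the Dux n=1 clones and 8.14, 5.28 and 8.34 in the Dux-KO clones (15, 22 and 52), against 2.90, 3.80 and 2.20 in E14. Every edited clone was above every E14 library. It rose by 0.86 ± 0.21 in Dux n=1 (log2, SE; edgeR adjusted p = 0.0297) and by 1.13 ± 0.22 in Dux-KO (0.00659). The log2 value was 1.30 in Dux-KO clones 15 and 52 alone (0.00255), with the library labelled Dux-KO clone 22 left out. The Dux n=1 call was lost without E14 library 1 (adjusted p = 0.135), 2 (0.0652) or 3 (0.152), without Dux n=1 clone 17 (0.0764), and with a GC content offset (0.73, 0.086). The treated set did not show this difference. With DMSO mean Eomes was 7.75 TPM in N22 and 7.08 in KO22, against 7.23 in WT, and neither clone was called against WT. Over all genes 4.88% were called higher and 4.28% lower in Dux n=1 than in E14 (9.16% called), beside 1 and 0 of the 8 genes. In Dux-KO against E14 these were 9.26% and 11.1% (20.4% called), beside 2 and 0 of the 8. The median log2 fold change of the 8 genes was 0.44 in Dux n=1 and 0.37 in Dux-KO, and that of all genes was 0.01 and 0.02.

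Hand1 was the other gene called higher in Dux-KO, and it differed widely among the clones. It had 11, 18, 7 and 24 counts in Dux n=1 clones 17, 22, 31 and 40, and 106, 5 and 40 in Dux-KO clones 15, 22 and 52, against 4, 3 and 12 in E14. Dux-KO clones 15 and 52 stood above all other untreated libraries, and the library labelled Dux-KO clone 22 lay within the E14 range. The log2 value was 2.82 ± 0.86 in Dux-KO (SE; edgeR adjusted p = 0.04). It became 3.34 on leaving out the library labelled Dux-KO clone 22 (0.00462). The call was lost without Dux-KO clone 15 (1.77, adjusted p = 0.186), without Dux-KO clone 52 (0.0686) and without E14 library 1 (0.145), 2 (0.129) or 3 (0.0626). It was also lost with no filter on low counts (0.0703), a GC content offset (0.0929) and a fit of only the compared groups (0.0669). In Dux n=1 it was 1.18 ± 0.86 and not called (edgeR adjusted p = 0.392).

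Fgfr2 had 1.87, 1.56, 1.52 and 1.22 TPM in the Dux n=1 clones and 0.367, 2.04 and 0.318 in Dux-KO clones 15, 22 and 52, against 2.19, 2.64 and 1.99 in E14. All 4 Dux n=1 clones were below all E14 libraries, while Dux-KO split into 2 low libraries and the library labelled Dux-KO clone 22, which lay within the E14 range in TPM and below it in CPM (7.73, against 9.35 to 10.2). The treated KO22 clone with DMSO, at 0.485 and 0.552 TPM, was nearer to clones 15 and 52 than to that library. Over all 3 the Dux-KO value was -1.48 ± 0.55 and not called (log2, SE; edgeR adjusted p = 0.0773), and DESeq2 called it (0.0311). It was -2.90 and called when the library labelled Dux-KO clone 22 was left out (adjusted p = 0.000424). In Dux n=1 it was -0.77 ± 0.49 and not called (adjusted p = 0.334).

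The other genes were not called in the untreated set with all groups in the fit. Gata3 had 12, 6, 35 and 29 counts in Dux n=1 clones and 23, 11 and 24 in Dux-KO clones, against 34, 46 and 44 in E14. Dux-KO lay wholly below E14 and Dux n=1 overlapped it, with log2 values of -1.20 ± 0.57 in Dux-KO and -0.98 ± 0.52 in Dux n=1 (edgeR adjusted p = 0.16 and 0.243). The Dux-KO value was called with only the compared groups (adjusted p = 0.0415), and was -0.94 (0.301) on leaving out the library labelled Dux-KO clone 22. Tfap2c had 34.7, 46.4, 23.7 and 18.6 TPM in Dux n=1 and 25.2, 28.8 and 17.5 in Dux-KO, against 16.0, 20.3 and 15.7 in E14. The untreated clones were thus not lower than E14 in Tfap2c, whereas the treated N22 and KO22 clones with DMSO were lower than WT. Krt8 was at 10.3 to 21.3 TPM in Dux n=1 and 13.5 to 23.3 in Dux-KO, against 10.4 to 15.7 in E14, and Krt18 at 4.69 to 19.5 and 5.76 to 14.3, against 4.40 to 5.06. Gata2 was at 0.513 to 0.689 TPM in Dux n=1 and 0.629 to 1.13 in Dux-KO, against 0.546 to 0.975 in E14. Cdx2 had 4 to 7 counts in Dux n=1 and 4 to 15 in Dux-KO, against 4 to 11 in E14, with a CPM ratio of 0.959 (0.504 to 1.85) for Dux n=1 and 1.16 (0.603 to 2.25) for Dux-KO. Between Dux n=1 and Dux-KO 0 of the 8 genes were called by edgeR or by DESeq2, with 1 at an unadjusted edgeR p below 0.05, and 0% of all genes were called by either, with 856 at an unadjusted edgeR p below 0.05. That number was 2006 without the library labelled Dux-KO clone 22 and 418 with only the compared groups, again with 0 called.

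**Figure D4:**
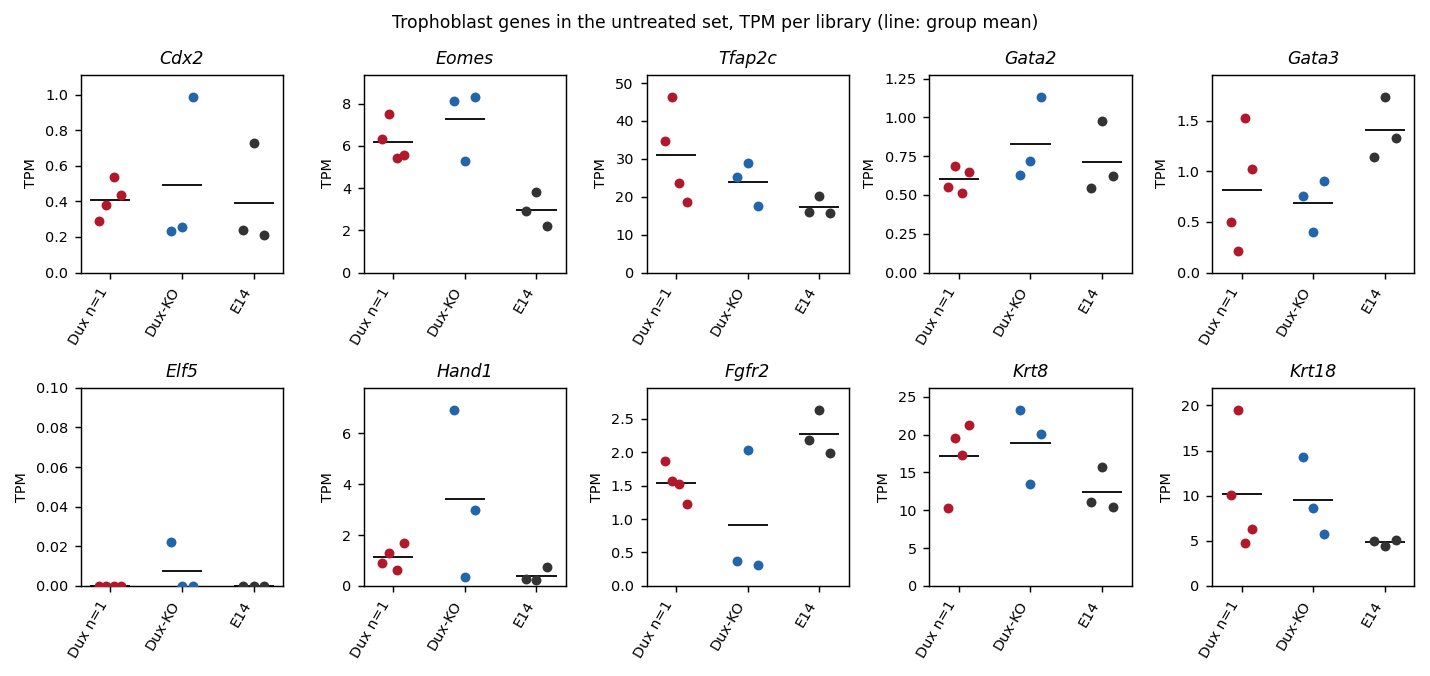
TPM of the 10 genes in the 10 untreated libraries, for Dux n=1, Dux-KO and E14 from left to right; points are libraries and lines are group means. Eomes is above E14 in every edited clone, and Hand1 and Fgfr2 split the 3 Dux-KO clones.

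Set in order by mean TPM, Tfap2c, Krt8 and Krt18 were the 3 highest in all 6 treated groups, Eomes followed at 6.12 to 7.75 (group means), and Fgfr2, Hand1, Cdx2, Gata2 and Gata3 lay below 4, with Elf5 last. Across groups, Tfap2c was at 70.1 TPM in N22 with GSK-3484862, 69.6 in WT with DMSO and 64.7 in WT with GSK-3484862, each overlapping its neighbour in this order, then at 48.7 in N22 with DMSO, 41.1 in KO22 with GSK-3484862 and 17.8 in KO22 with DMSO. The last 3 were each separate from their neighbours. Cdx2 was at 2.43 TPM in KO22, 1.19 in WT and 1.19 in N22, all with GSK-3484862, then at 0.693 in KO22, 0.551 in N22 and 0.0651 in WT, all with DMSO, and in this order KO22 with GSK-3484862 and WT with DMSO were each separate from all other groups. For Hand1 and Gata3 every library with GSK-3484862 lay above every library with DMSO, whatever the genotype.

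By the distance between centred log2 CPM profiles over the 6 treated group means, among 11268 genes searched, the genes nearest to Hand1 were Slc1a1 (root mean square distance 0.0544), Fmn2 (0.0718) and Sncg (0.0887), beside a spread of 0.72 for Hand1 itself. Nearest to Tfap2c, with a spread of 0.69, were Fzd2 (0.0979), Epb41l3 (0.0995) and Gad1 (0.156). Nearest to Fgfr2, with a spread of 0.90, were Tmem30b (0.148), Platr14 (0.199) and Dicer1 (0.204). For Gata3 (spread 1.28) they were Igf2 (0.348), Arl14epl (0.377) and Tuba3a (0.394), and for Cdx2 (1.13) Tigd5 (0.334), Prrt3 (0.346) and Rhbdl3 (0.369). The few counts of Gata3 and Cdx2 limit their profiles. The profiles of Eomes, Gata2, Krt8 and Krt18 had spreads of 0.14 to 0.35, and their nearest genes were Plxna3 (0.0194), Folr1 (0.0832), Tfpi (0.0398) and Fbxo36 (0.0577).

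Genes around the 10 were read from listed pathways. Log2 changes are given only in genotypes where the gene was among up to 4 called genes of smallest p in its list. A genotype left out for a gene, here and for the lists that follow, may therefore have changed as well. Of 10 Hippo genes upstream of Cdx2, 5 rose and 3 fell with GSK-3484862 in N22, 4 and 3 in KO22 and 3 and 3 in WT. For this and each list that follows, the shares of all genes that rose and fell were 26.9% and 26% in N22, 24.8% and 21.2% in KO22 and 28.7% and 28.1% in WT. Tead4, the TEAD factor required for trophectoderm, fell by 0.91 ± 0.10 in N22, 0.95 ± 0.08 in KO22 and 0.73 ± 0.09 in WT (log2, SE; edgeR adjusted p = 5.29e-12, 1.53e-15 and 5.77e-10). Wwtr1, a co-activator of TEAD factors, fell by 0.76 ± 0.07, 0.92 ± 0.07 and 0.99 ± 0.07 in N22, KO22 and WT. Vgll4, which competes with YAP1 for TEAD factors, rose by 1.23 ± 0.13, 1.10 ± 0.11 and 1.51 ± 0.13 in N22, KO22 and WT. Other genes of the list went otherwise: Tead1 rose in KO22 by 0.54 ± 0.05 (edgeR adjusted p = 1.47e-14). Yap1 was at 59.6 and 63.8 TPM in N22, 53.3 and 55.6 in KO22 and 56.6 and 58.1 in WT with GSK-3484862, against 53.4 and 55.9, 53.5 and 54.0, and 54.5 and 58.7 with DMSO.

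Of 11 genes of FGF and BMP input, 4 rose and 4 fell in N22, 4 and 4 in KO22 and 6 and 1 in WT. Fgf4, the ligand of FGFR2, fell by 0.51 ± 0.04 in N22, 0.52 ± 0.04 in KO22 and 0.79 ± 0.04 in WT (log2, SE). Bmp4 fell by 0.51 ± 0.07 in N22 and by 0.51 ± 0.07 in KO22, while its WT libraries stood higher, at 36.0 and 41.0 TPM with GSK-3484862, against 32.1 and 34.8 with DMSO. Dusp6, a phosphatase induced by FGF signalling, rose in WT by 0.83 ± 0.06, and Spry4, another feedback inhibitor, rose in WT by 0.20 ± 0.04 and fell in N22 by 0.54 ± 0.04. Of 13 other trophoblast transcription factors tested, 5 rose and 5 fell in N22, 4 and 4 in KO22 and 5 and 6 in WT. Esrrb, shared by trophoblast and ES cells, fell by 0.41 ± 0.03, 0.59 ± 0.03 and 0.58 ± 0.03 in N22, KO22 and WT, while Sox21 rose by 1.57 ± 0.15, 2.11 ± 0.20 and 1.73 ± 0.16 and Id2 by 1.45 ± 0.15, 1.64 ± 0.17 and 1.03 ± 0.16.

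Of 13 trophectoderm epithelial genes tested, 8 rose and 0 fell in N22, 11 and 1 in KO22 and 6 and 3 in WT. Aqp3, a water channel, rose by 1.56 ± 0.07 in N22 and 0.96 ± 0.07 in WT, and Cldn3, a tight junction protein, by 0.99 ± 0.20 in N22 and 1.97 ± 0.18 in KO22. Atp1b1, a sodium pump subunit used in blastocoel formation, fell by 0.39 ± 0.05 in KO22 and 0.43 ± 0.05 in WT. Only 4 of 14 placental products were tested: 2 rose and 1 fell in N22, 2 and 0 in KO22 and 2 and 1 in WT. Those that rose were the imprinted gene Peg10 (0.81 ± 0.03, 0.84 ± 0.03 and 1.12 ± 0.03 in N22, KO22 and WT) and the matrix protease Mmp9 (0.70 ± 0.24, 1.49 ± 0.23 and 1.13 ± 0.22), and the one that fell was Plac8 (-1.73 ± 0.29 in N22 and -1.41 ± 0.29 in WT). In the untreated set 10, 11, 11, 12 and 4 genes of these 5 lists were tested against E14. Of them 0 rose and 1 fell in Dux n=1, beside 4.88% and 4.28% of all genes, and 2 rose and 5 fell in Dux-KO, beside 9.26% and 11.1%.

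**Figure D5:**
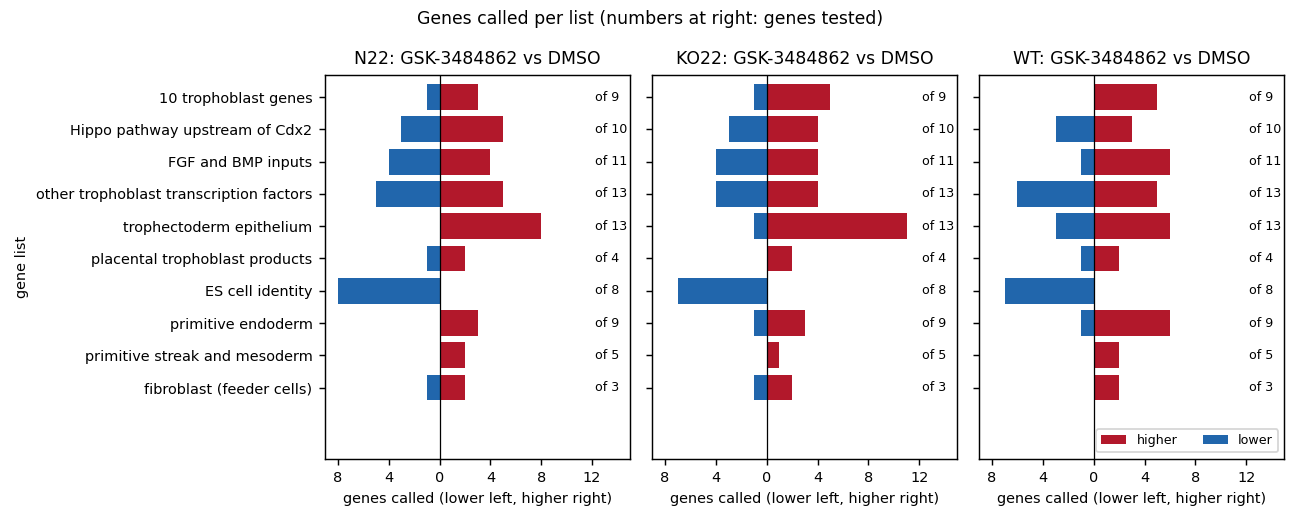
Number of genes called higher (right) and lower (left) with GSK-3484862 against DMSO in each gene list, for N22, KO22 and WT; the number of genes tested stands at the right of each panel. The trophectoderm epithelium has 8, 11 and 6 genes higher, and the ES cell list has 8, 7 and 7 lower.

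Markers of other lineages moved in the same comparisons. Of 8 ES markers, 8 fell in N22, 7 in KO22 and 7 in WT, and their summed level was 4200 to 4270 CPM in N22, 4300 to 4320 in KO22 and 4210 to 4240 in WT with GSK-3484862, against 5330 to 5350, 5090 to 5190 and 5420 to 5490 with DMSO. Of 9 primitive endoderm markers tested, 3 rose and 0 fell in N22, 3 and 1 in KO22 and 6 and 1 in WT, with summed levels of 12.4 to 15.1, 16.6 to 17.0 and 23.4 to 24.7 CPM with GSK-3484862, against 7.04 to 8.34, 9.98 to 10.6 and 10.5 to 12.6 with DMSO. Gata6 rose by 1.72 ± 0.31, 2.19 ± 0.30 and 1.50 ± 0.25 (log2, SE) and Cubn by 2.04 ± 0.36, 3.14 ± 0.38 and 2.41 ± 0.29 in N22, KO22 and WT. The marker that fell in KO22 was Sox7 (-0.64 ± 0.26), and the marker that fell in WT was outside the rule for named genes. Foxa2 had 12, 16 and 22 counts with GSK-3484862, against 5, 4 and 0 with DMSO. Of 5 mesoderm markers tested, 2 rose in N22, 1 in KO22 and 2 in WT, Kdr among them in each (1.91 ± 0.33, 1.60 ± 0.25 and 3.18 ± 0.35). Of 3 fibroblast markers tested, 2 rose and 1 fell in N22, 2 and 1 in KO22 and 2 and 0 in WT, the one that fell being Thy1 (-0.39 ± 0.10 in N22 and -0.30 ± 0.09 in KO22). The list summed to 21.5 to 38.3 CPM with GSK-3484862, against 19.1 to 42.1 with DMSO. Mitochondrial genes took 2.66% to 3.20% of counts with GSK-3484862, against 1.65% to 2.39% with DMSO. In the untreated set the fibroblast markers summed to 13.8 to 29.6 CPM in Dux n=1 and 21 to 53.7 in Dux-KO, against 9.21 to 10.7 in E14, with Col3a1, Postn, Dcn and Lum at 0 in both Dux-KO and E14, and 1 of 2 tested rose in Dux n=1 and 2 of 2 in Dux-KO. The part of any of these in the values of the 10 genes was not tested.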

How the data were processed

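The deposited values were raw fragment counts per gene over exons of the Ensembl 84 annotation, counted for paired reads without strand and without multi-mapping reads, per the file headers. Reads were trimmed with fastp 0.23.2, aligned to GRCm38 with HISAT2 2.1.0 and counted with featureCounts 2.0.1, per the submitters' processing notes, which also list DESeq2 1.40.2. RNA came from 22 libraries, and 1 ug of total RNA entered each, per the labels' protocols. Groups were taken from sample titles. Of 47729 gene identifiers, 47310 had a symbol in GENCODE M21.

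CPM and TPM were computed from these counts. The untreated (10 libraries) and treated (12 libraries) sets were each fitted in edgeR 4.0.16 with R 4.3.3 (TMM factors, a minimum count of 10 in filterByExpr, robust quasi-likelihood test) with groups as the only terms. This tested 14796 untreated and 16641 treated genes, at common biological coefficients of variation of 0.208 and 0.0435. The sets were never compared by a test. A gene was called at an adjusted p below 0.05, over 15 comparisons. For Cdx2 and Gata3, where a group held 4 counts or fewer or the gene was not tested, the ratio of CPM was given with an exact conditional 95% counting interval. Intervals and the floor of 3 counts cover counting error only, as reads carry no molecular identifiers. No 2 libraries of a group agreed within sampling noise.

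The 10 genes and the lists were chosen with earlier results of these data known. The rule for named genes took all 10, up to 4 called genes of smallest p per list in each response, of which some are named, and the 3 nearest profiles. The alternatives tried were a GC content offset, RLE factors, DESeq2 1.42.0, a fit without the filter on low counts, a fit of only the compared groups, a replicate block in the treated set, and each library left out in turn. A group left with 1 library was assumed to vary like the others. Figures were drawn with matplotlib 3.10.9.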

Additional observations from a re-analysis of the deposited data

Results flagged for a closer look

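The responses to GSK-3484862 differed between genotypes, by interaction terms in edgeR with adjustment over 16641 genes, for 3 of the 9 genes tested. For Tfap2c the log2 response of N22 was 0.57 ± 0.08 above that of WT (SE; adjusted p = 1.86e-07), that of KO22 was 1.32 ± 0.09 above that of WT (4.65e-20), and that of N22 minus that of KO22 was -0.75 ± 0.09 (6.97e-10). For Fgfr2 the KO22 response minus that of WT was 1.58 ± 0.25 (adjusted p = 3.80e-07) and the N22 response minus that of KO22 was -1.33 ± 0.25 (5.25e-05). For Krt8 the KO22 response minus that of WT was -1.02 ± 0.19 (adjusted p = 1.94e-05) and the N22 response minus that of KO22 was 0.88 ± 0.19 (0.000456). All 7 differences were called under every alternative tried. Each response contains the DMSO libraries of its own genotype, and with DMSO the same 3 genes also differed between KO22 and WT. The 4 Dux n=1 clones varied for some of the genes. Clone 22 had 19.5 TPM of Krt18, against 4.69 to 10.0 in clones 17, 31 and 40. It had 46.4 TPM of Tfap2c, against 18.6 to 34.7. Gata3 ran from 6 counts in clone 22 to 35 in clone 31.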

How the results depend on the processing

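Of 132 results on the 10 genes that had alternatives, 44 were called, 31 of these kept their call under every alternative that gave a value, and 0 of the 44 changed sign. The 13 that lost the call somewhere are given with their values above, and 11 results that were not called were called under some alternative, among them Fgfr2 in Dux n=1 against E14 with only the compared groups (-0.75, adjusted p = 0.0219). Of the uncalled results, 29 changed sign under some alternative. With a GC content offset Gata2 in Dux-KO against E14 became -0.24 and Krt18 in the N22 response minus that of KO22 became 0.05. This Krt18 value was 0.00 with RLE factors and with DESeq2. Eomes in KO22 against WT with DMSO was 0.00 with no filter on low counts and with only the compared groups. The others changed sign when 1 library was left out, with these log2 ranges over the libraries left out. For Dux-KO against E14 this was Gata2 -0.23 to 0.22. For Dux n=1 against Dux-KO this was Gata3 -0.26 to 0.54, Krt8 -0.36 to 0.01 and Krt18 -0.48 to 0.45. For the WT response this was Fgfr2 -0.01 to 0.11. For the KO22 response this was Krt18 -0.12 to 0.04. For the N22 response this was Gata2 -0.09 to 0.69 and Krt18 -0.27 to 0.15. For the KO22 response minus that of WT this was Eomes -0.20 to 0.09, Gata3 -0.31 to 0.26 and Hand1 -0.99 to 0.14. For the N22 response minus that of WT this was Hand1 -0.27 to 0.87, Krt8 -0.28 to 0.01 and Krt18 -0.07 to 0.35. For the N22 response minus that of KO22 this was Gata2 -0.30 to 0.49 and Krt18 -0.23 to 0.19. For KO22 against WT with DMSO this was Eomes -0.13 to 0.04 and Gata3 -0.11 to 0.32. For N22 against WT with DMSO this was Hand1 -0.30 to 0.83 and Krt8 -0.03 to 0.14. For N22 against KO22 with DMSO this was Cdx2 -0.74 to 0.46. For KO22 against WT with GSK-3484862 this was Eomes -0.24 to 0.05, Gata2 -0.36 to 0.31 and Gata3 -0.22 to 0.36. For N22 against WT with GSK-3484862 this was Cdx2 -0.42 to 0.56 and Krt8 -0.22 to 0.06. For N22 against KO22 with GSK-3484862 this was Eomes -0.18 to 0.11, Hand1 -0.07 to 0.31 and Krt8 -0.05 to 0.31. The causes were not tested.

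Over all genes, the number called in Dux-KO against E14 was 3016, and 978 with a GC content offset, 931 to 3572 with 1 library left out, being 931, 1739 and 1171 without E14 library 1, 2 or 3 and 1977 without Dux-KO clone 15. In Dux n=1 against E14 it was 1355, and 2515 with DESeq2, 330 with a GC content offset, 2450 with only the compared groups and 24 to 1237 with 1 library left out, being 24, 344 and 52 without E14 library 1, 2 or 3 and 351 without clone 17. DESeq2 gave 1178 for the N22 response minus that of WT (1844 by edgeR), 2047 for the N22 response minus that of KO22 (3101), 2451 for KO22 against WT with GSK-3484862 (3728) and 935 for N22 against WT with GSK-3484862 (1606). With 1 library left out the last was 884 to 972, and N22 against WT with DMSO was 2811 to 3048 (4221).

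Over all genes tested, same-numbered treated libraries did not deviate together (correlations of -0.0168 to 0.0294). Counting noise of genes with few counts enters this measure, so it cannot tell whether the numbers mark pairs for some genes. With a replicate block the calls were 8788 in the N22 response, 7683 in the KO22 response and 9459 in the WT response, 1899, 5320 and 3135 for N22 minus WT, KO22 minus WT and N22 minus KO22, 4255, 8655 and 6525 for N22 against WT, KO22 against WT and N22 against KO22 with DMSO, and 1631, 3742 and 4116 with GSK-3484862. Among the 10 genes the block moved 1 call, Tfap2c in the WT response (-0.13, adjusted p = 0.0466), and gave 0.00 for Cdx2 in N22 against WT with GSK-3484862. Cdx2, Gata3, Gata2 and Hand1 rest on 1 to 106 counts per library and Elf5 on 0 to 3, which limits what could be detected for them.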
